A study of Mus musculus with 7 samples.

Results

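The genes described here form the core of the PI3K, AKT and mTOR cascade in tumors grown from mouse fibroblasts. They are Pik3ca, Pik3cb, Pik3cd and Pik3cg, the catalytic subunits of class I phosphoinositide 3-kinase, the kinases Akt1 and Akt2, and Mtor and Rptor of the mTORC1 complex. They were chosen by name, as the Ensembl identifiers that carry these symbols in the GENCODE M21 annotation, and make up 8 of the 46603 genes counted. All 8 passed the filter on low counts, with 134 to 11591 reads per gene and library.

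RNA-seq was made from 3 tumor pieces of NM1 knock-out (KO) cells and 4 tumor pieces of KO cells with NM1 put back (KO+NM1). Nuclear myosin 1 (NM1) is an isoform of Myo1c, a myosin motor, that acts in the nucleus on transcription. KO cells are mouse embryonic fibroblasts (MEFs) of an established line whose NM1 was removed by CRISPR/Cas9 editing, and KO+NM1 cells carry in addition a lentivirus for NM1 with HA and V5 tags, selected with neomycin, of which single clones were tested by Western blot. Both groups therefore share the deletion and the MEF origin, and clone and genotype cannot be told apart. The cells were injected under the skin of female Balb/c nude mice, which lack most T cells, aged 16 weeks and 5 per group, and the labels place the injection in the right flank and the harvest at 30 days. The study's text also writes of the mammary pad and of a shorter time. Per the labels, 1 tumor per condition was divided into 4 pieces, and if so the spread between pieces holds no difference between mice. All SDs, standard errors and p-values below cover pieces only.

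Class I PI3K turns the membrane lipid PIP2 into PIP3 when growth factor, chemokine or antigen receptors are engaged. PIP3 brings AKT to the membrane, where PDK1 and mTORC2 phosphorylate it, and AKT then releases the TSC brake on RHEB, the activator of mTORC1. The subunits p110α and p110β, from Pik3ca and Pik3cb, occur in most cells, whereas p110δ and p110γ, from Pik3cd and Pik3cg, are known mainly from leukocytes. Akt1 serves growth and survival in most tissues, and Akt2 is the main isoform of insulin-responsive cells such as adipocytes and muscle fibers. RNA levels say nothing of kinase activity, which was not measured in these libraries.

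The region before the annotated start is shown for the pair of leukocyte-type subunits, whose levels ran in parallel across the pieces, and for the mTORC1 pair, whose levels did not. Capitals mark CpG dinucleotides, the letters C and G next to each other. Sequences are the 250 bases 5′ of the outermost RefSeq start of each gene in GRCm38.p6, read 5′ to 3′ on the strand of the gene.
Pik3cd, chr4:149698709-149698958, minus strand: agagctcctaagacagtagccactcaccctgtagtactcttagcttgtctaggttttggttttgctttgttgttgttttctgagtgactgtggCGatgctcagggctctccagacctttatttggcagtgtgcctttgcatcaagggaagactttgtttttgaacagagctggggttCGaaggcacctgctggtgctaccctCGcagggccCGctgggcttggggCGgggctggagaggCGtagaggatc
Pik3cg, chr12:32208660-32208909, minus strand: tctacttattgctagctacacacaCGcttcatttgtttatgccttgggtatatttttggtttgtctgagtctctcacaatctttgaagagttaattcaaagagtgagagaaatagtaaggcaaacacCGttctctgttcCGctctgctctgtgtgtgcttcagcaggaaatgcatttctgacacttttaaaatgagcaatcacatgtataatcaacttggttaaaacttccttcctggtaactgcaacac
Mtor, chr4:148448332-148448581, plus strand: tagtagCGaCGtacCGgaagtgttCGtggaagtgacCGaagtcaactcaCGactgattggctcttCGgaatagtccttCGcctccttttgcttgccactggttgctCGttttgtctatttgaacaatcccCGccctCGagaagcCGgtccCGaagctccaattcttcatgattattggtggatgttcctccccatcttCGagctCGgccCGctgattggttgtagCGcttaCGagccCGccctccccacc
Rptor, chr11:119602655-119602904, plus strand: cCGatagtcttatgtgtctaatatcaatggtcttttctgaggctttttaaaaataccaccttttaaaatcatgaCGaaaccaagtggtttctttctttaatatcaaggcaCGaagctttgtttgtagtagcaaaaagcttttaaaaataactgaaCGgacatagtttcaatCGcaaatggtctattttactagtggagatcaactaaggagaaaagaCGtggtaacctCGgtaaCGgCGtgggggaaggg
None of these 4 windows overlaps an exon of GENCODE M21, and the Pik3cd window lies inside an intron of a longer GENCODE model of that gene. The Pik3cd window held 6 CpG and the Pik3cg window 3, against 19 for Mtor and 9 for Rptor. Set against base composition, the observed-to-expected CpG ratio was 0.35 for Pik3cd and 0.32 for Pik3cg, near the median of 0.37 over 32851 RefSeq windows of the same length. It was 1.05 for Mtor and 1.04 for Rptor, at percentiles 96.1 and 96.0 of all windows. The Rptor window was low in G and C, at 37.6% against a median of 52.4%. The single windows of Pik3ca and Pik3cb had ratios of 0.81 and 0.88, and 140 bases of the Pik3cb window lie in GENCODE exons. Genes with several annotated starts were mixed, since another Pik3cd window reached 0.71, the windows of Akt1 had 0.41 and 0.82, and those of Akt2 ran from 0.00 to 0.67. Searched on both strands, the letters GGGCGG of the GC box stood in the windows printed here for Pik3cd and Mtor, and in 32.7% of all windows. The letters CCAAT stood in that of Mtor, and in 33.8% of all windows. The letters TATAAA stood in none of the members' windows, and in 12.4% of all windows. These are matches of letters, and which start was used in the tumors cannot be read from gene counts.

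Reads counted on genes ran from 24088309 to 28326568 per library, and mitochondrial genes took 1.81 to 2.14% of them in KO and 5.11 to 18.5% in KO+NM1. KO+NM1 piece 01 stood apart. Its log2 CPM (CPM being counts scaled to library size, here with TMM factors) correlated with the other KO+NM1 pieces at r = 0.855 to 0.861, whereas pieces 02, 03 and 04 reached 0.986 with each other and the KO pieces 0.966 to 0.977. Its B cell and plasma cell markers summed to 2790 CPM, with Cd79a, a part of the B cell receptor, at 1290 CPM, against 2.71 to 10.6 CPM for the summed list in pieces 02 to 04 and 8.03 to 31.7 CPM in KO. Markers of fibroblasts, the cells injected, summed to 7200 to 13000 CPM in KO, 2850 CPM in piece 01 and 7530 to 13000 CPM in pieces 02 to 04. Of these 8 markers, 4 were lower and 0 higher in KO at an adjusted p under 0.05 from edgeR over all pieces. Where leaving out piece 01 changes the call of a core gene, or a count of called genes by over 1.5 times, the value without it is given too. Myo1c, the gene that holds the NM1 isoform, checked the labels as far as gene counts allow, because they separate neither isoforms nor injected from host cells. It was 313, 289 and 306 CPM in KO and 438, 408, 406 and 382 CPM in KO+NM1, without overlap. The log2 fold change, KO minus KO+NM1 here and throughout, was -0.43 (standard error 0.13, adjusted p = 0.031 with edgeR), and leaving out any KO piece or KO+NM1 piece 02 ended this call (adjusted p from 0.0508 to 0.072).

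Among the 8 core genes, Rptor was higher and Akt2 lower in KO at an adjusted p under 0.05 from edgeR. The remaining 6 did not pass. Over all 16887 genes tested, 50.2% passed in either direction, 25.7% higher and 24.5% lower, so that 2 of 8 is a smaller share than that of the table as a whole. With the 2-fold change of the study's methods added, Akt2 alone passed, against 37.3% of all genes. For Pik3ca, Akt1 and Rptor, 3 of the 8, the groups did not overlap, with KO above, against 57.0% of all genes without overlap in either direction. The median log2 fold change of the 8 genes was 0.16 and its median size 0.21, and over all genes the median size was 0.89. Without KO+NM1 piece 01 the calls became 5, with Pik3cd, Pik3cg and Rptor higher and Pik3cb and Akt2 lower. In that fit 71.8% of all genes passed, 35.8% higher and 36.0% lower. Since these are bulk pieces, fewer cells of a type and less RNA per cell cannot be told apart for any gene.

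**Figure D1:**
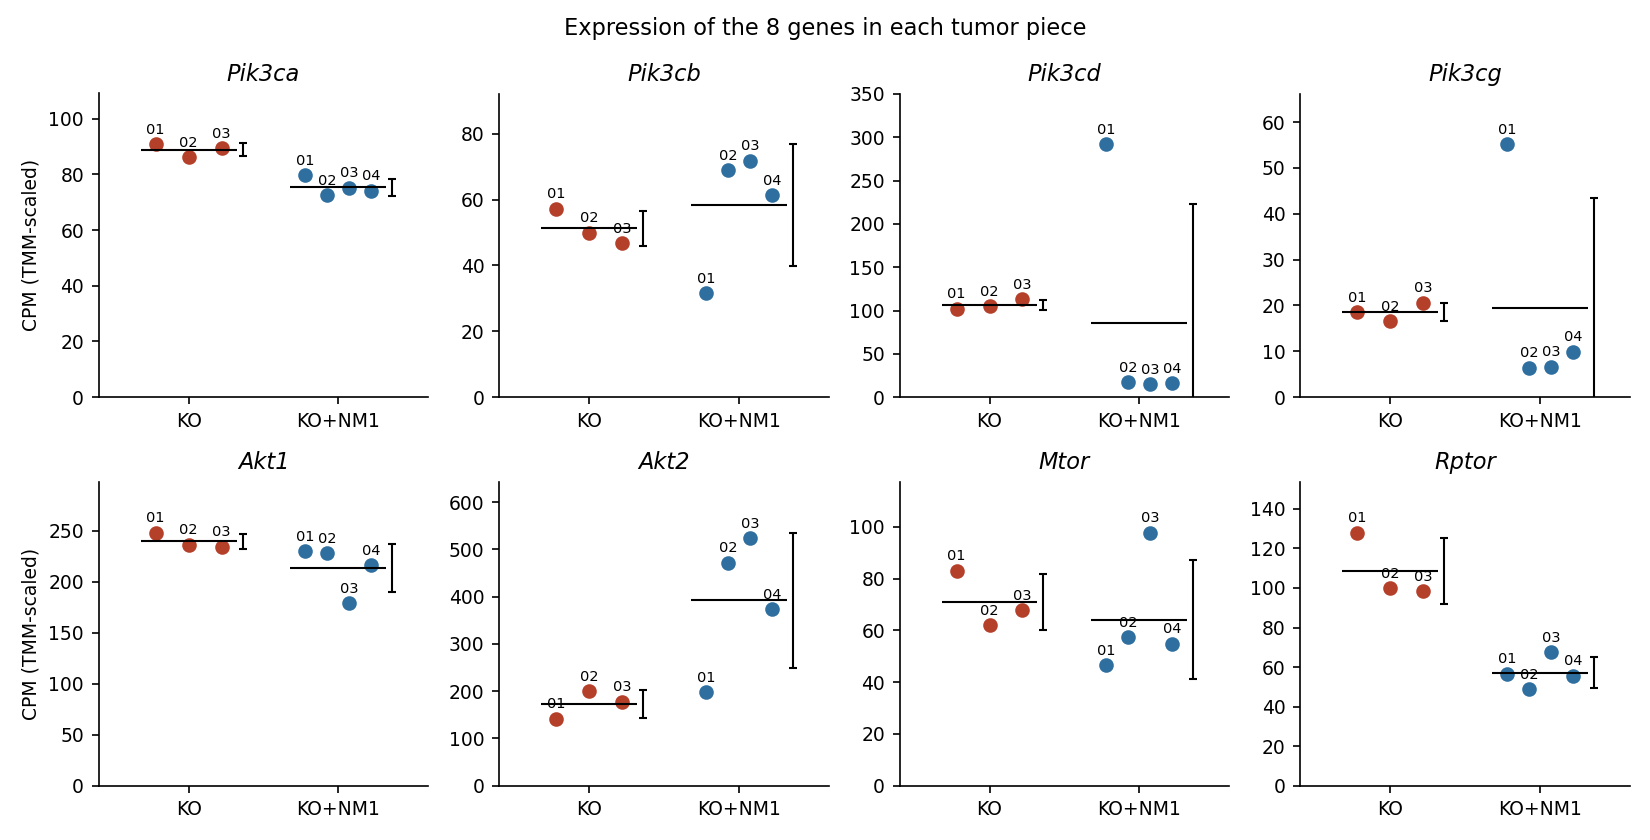
TMM-scaled CPM (vertical axes, from 0) of the 8 core genes in the 3 KO pieces (red) and 4 KO+NM1 pieces (blue), numbered by piece, with the group mean as a line and the SD as a bar that stops at the axis where it would pass below 0. KO+NM1 piece 01 lies far above the other 3 KO+NM1 pieces for Pik3cd, at 292 against 15.2 to 17.2 CPM, and all KO pieces of Rptor lie above all KO+NM1 pieces.

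Pik3ca (ENSMUSG00000027665, chr3:32397671-32468486 of GRCm38, plus strand), which encodes p110α, the subunit most often mutated in human carcinomas, had the tightest levels. It stood at 90.9, 86.3 and 89.5 CPM in KO and at 79.8, 72.6, 75.2 and 74.2 CPM in KO+NM1. All KO pieces were above all KO+NM1 pieces, but by little. The log2 fold change was 0.24 (standard error 0.11, adjusted p = 0.102 with edgeR), and it did not pass without piece 01 either (0.14, adjusted p = 0.141 with edgeR).

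Pik3cb (ENSMUSG00000032462, chr9:99036654-99140621, minus strand) encodes p110β, which also answers to G protein-coupled receptors. It was measured at 57.2, 49.9 and 46.8 CPM in KO and at 31.5, 69.0, 71.8 and 61.3 CPM in KO+NM1. Piece 01 was the lowest of all 7 libraries and the other KO+NM1 pieces were the highest, so the groups overlapped. The log2 fold change over all pieces was -0.19 (standard error 0.28, adjusted p = 0.613 with edgeR), and 0.03 when scaled by library size alone. Without piece 01 it was -0.52 (adjusted p = 0.00448 with edgeR).

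Pik3cd (ENSMUSG00000039936, chr4:149649168-149702571, minus strand), the gene of p110δ, which signals from B cell and T cell receptors, spread the most. It was 102, 105 and 113 CPM in KO, a coefficient of variation of 5.27%. In KO+NM1 it was 292 CPM in piece 01 and 17.2, 15.2 and 15.9 CPM in pieces 02, 03 and 04. The KO pieces thus lay between piece 01 and the other KO+NM1 pieces, and piece 01 was 18.2 times the mean of the other 3. The log2 fold change over all pieces was 0.32 with a standard error of 1.14 (adjusted p = 0.831 with edgeR), a value that stands for neither kind of KO+NM1 piece. Without piece 01 it was 2.60 (adjusted p = 4.53e-06 with edgeR), and without any other KO+NM1 piece it was -0.03.

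Pik3cg (ENSMUSG00000020573, chr12:32173473-32208659, minus strand) encodes p110γ, which acts behind chemokine receptors, and it had the same order of groups of pieces at a lower level. It was 18.5, 16.6 and 20.6 CPM in KO, 55.2 CPM in KO+NM1 piece 01 and 6.43, 6.62 and 9.95 CPM in pieces 02, 03 and 04. The log2 fold change was -0.07 (standard error 0.80, adjusted p = 0.947 with edgeR) over all pieces and 1.15 (adjusted p = 0.00221 with edgeR) without piece 01. Across the 7 libraries the log2 CPM of Pik3cg had r = 0.948 with that of Pik3cd.

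The list of general leukocyte markers moved with both genes. The 8 leukocyte markers, among them Ptprc (CD45), summed to 1340 to 1560 CPM in KO, to 5440 CPM in KO+NM1 piece 01 and to 223 to 287 CPM in pieces 02 to 04, and none of the 8 was at 0 in all libraries or passed the test over all pieces. Ptprc itself was 185 to 218 CPM in KO, 587 CPM in piece 01 and 18.0 to 22.4 CPM in pieces 02 to 04. Per 100 CPM of these markers, a scale chosen after the data were seen, Pik3cd was 7.24 to 7.65 CPM in KO and 5.37 to 6.79 CPM in KO+NM1, a far narrower range than before. Pik3cg on this scale was 1.21 to 1.39 CPM in KO, 1.01 CPM in piece 01 and 2.24 to 3.61 CPM in pieces 02 to 04. The macrophage list was 3100 to 3540 CPM in KO, 2480 CPM in piece 01 and 663 to 933 CPM in pieces 02 to 04, with 6 of 8 genes higher and 1 lower in KO. The mast cell list had another order, at 19.3 to 43.4 CPM in KO, 25.2 CPM in piece 01 and 73.9 to 189 CPM in pieces 02 to 04. The T and NK cell list was 152 to 180 CPM in KO, 183 CPM in piece 01 and 3.76 to 5.78 CPM in the other pieces. Within that list, Cd3e of T cells was 20.0 to 24.0 CPM in KO, 6.2 CPM in piece 01 and at most 0.0494 CPM in the other pieces. The part of these cells in the levels of Pik3cd and Pik3cg was not tested. Of the 11890 other protein-coding genes with a mean of at least 5 CPM, those most like Pik3cd in log2 CPM were Fgr, Dock2 and Irf8, each with r = 0.999 over the 7 libraries. With 1 library far above the rest and 3 far below, such values are easily high, and they are a description.

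**Figure D2:**
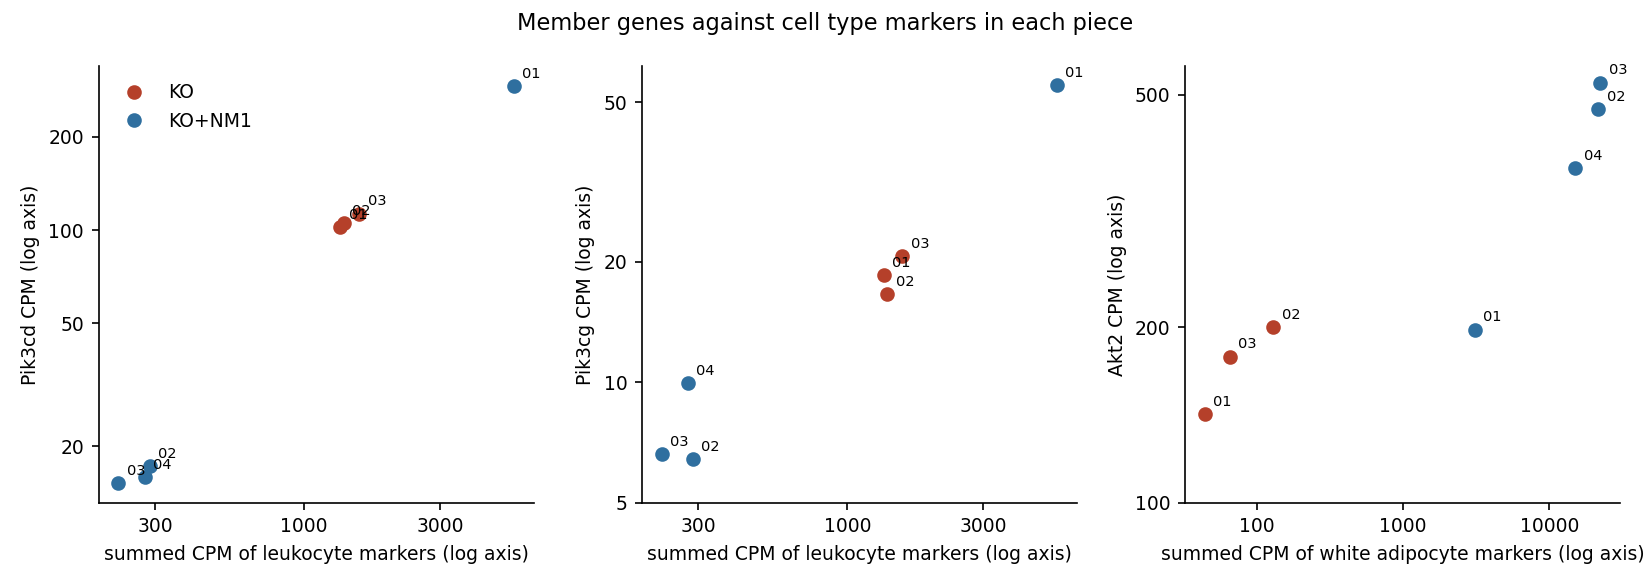
CPM of Pik3cd and Pik3cg against the summed CPM of 8 leukocyte markers, and CPM of Akt2 against the summed CPM of 8 white adipocyte markers, on log axes, with 1 numbered point per piece (KO red, KO+NM1 blue). Pik3cd follows the leukocyte markers from 15.2 CPM to 292 CPM, and Akt2 is highest in KO+NM1 pieces 02 to 04, where adipocyte markers are also highest.

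Scaled by exon length, the make-up of the class I catalytic transcripts differed between pieces. Pik3cd made up 47.1% ± 2.24 (SD, n = 3) of the 4 subunits in KO, 70.3% in KO+NM1 piece 01 and 11.3 to 13.0% in pieces 02 to 04. Pik3ca took 27.1% ± 0.384 in KO, 13.2% in piece 01 and 37.9 to 40.0% in the others, and Pik3cb took 19.7% ± 2.09, 6.60% and 41.8 to 46.5%. Pik3cg held 6.09% ± 0.528 in KO and 3.62 to 9.87% in KO+NM1. The ratio of Pik3cd and Pik3cg to Pik3ca and Pik3cb was 1.03 to 1.25 in KO, 4.04 in piece 01 and 0.176 to 0.223 in the remaining pieces. Its mean log2 difference between the groups was 1.43 (two-sided exact permutation test, p = 0.343, 0.48 after Benjamini-Hochberg adjustment over 6 ratios). The ratio of Pik3ca to Pik3cb was 1.26 to 1.51 in KO, 2.00 in piece 01 and 0.83 to 0.958 in the others, and the groups overlapped (exact permutation test, p = 0.4, adjusted p = 0.48). That of Pik3cd to Pik3cg was 7.36 to 8.55 in KO, 7.12 in piece 01 and 2.15 to 3.60 in pieces 02 to 04, without overlap (exact permutation test, p = 0.0571, adjusted p = 0.114). With 3 against 4 pieces the smallest p this test can give is 0.0286.

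**Figure D3:**
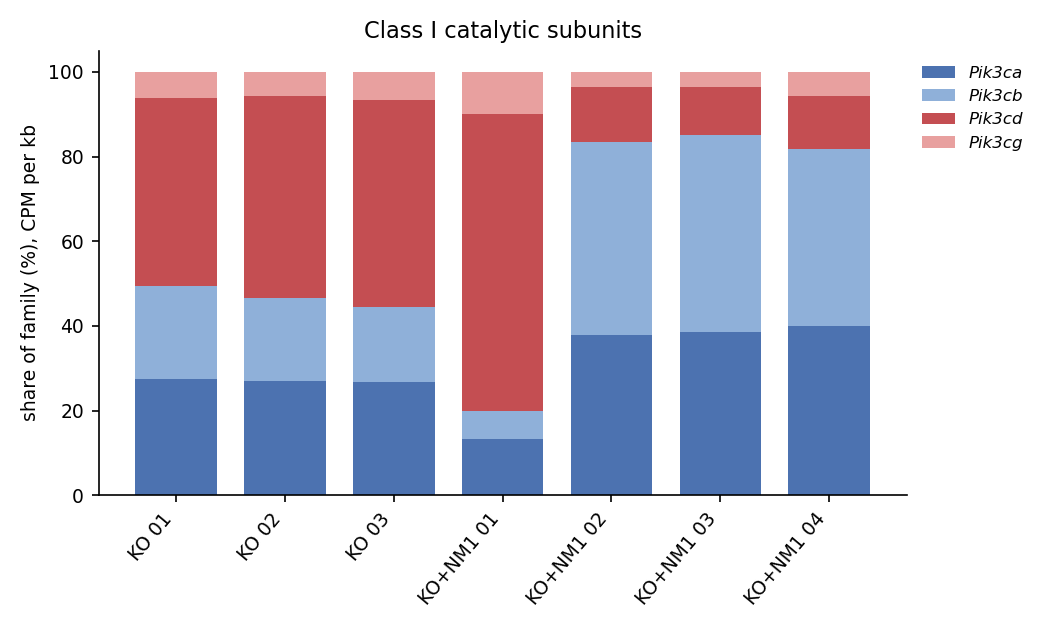
Share in percent of each gene in the CPM per kb of the 4 class I catalytic subunits, with 1 stacked bar per piece. Pik3cd takes 70.3% of the class I transcripts in KO+NM1 piece 01 and at most 13.0% in KO+NM1 pieces 02 to 04.

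Akt1 (ENSMUSG00000001729, chr12:112653821-112674884, minus strand) was the most abundant of the 8 genes per length in KO, at 58.4 ± 1.81 CPM per kb (SD, n = 3), and barely differed between the groups. It was 248, 236 and 234 CPM in KO and 230, 228, 179 and 216 CPM in KO+NM1. All KO pieces were above all KO+NM1 pieces, the closest by a few CPM. The fitted log2 fold change came to 0.17 (standard error 0.14, adjusted p = 0.356 with edgeR) and passed the threshold in 0 of 16 alternatives.

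Akt2 (ENSMUSG00000004056, chr7:27591552-27640826, plus strand) was lower in KO. It stood at 142, 200 and 178 CPM in KO and at 198, 472, 524 and 374 CPM in KO+NM1. Piece 01 lay within the KO range, and the other KO+NM1 pieces lay well above it. This made -1.18 on the log2 scale (standard error 0.33, adjusted p = 0.0254 with edgeR), and -1.52 (adjusted p = 0.000323 with edgeR) without piece 01. The call was lost without KO piece 01 (adjusted p = 0.0776), KO piece 03 (0.064), KO+NM1 piece 02 (0.061) or KO+NM1 piece 03 (0.0551), all with edgeR, while the log2 fold change stayed between -1.52 and -1.02. The 8 white adipocyte markers were all lower in KO. They summed to 44.0 to 129 CPM in KO, 3110 CPM in piece 01 and 15100 to 22400 CPM in pieces 02 to 04, and Adipoq, the adiponectin gene, was 0.40 to 9.18 CPM in KO, 235 CPM in piece 01 and 1460 to 2070 CPM in the rest. Piece 01 was thus above every KO piece for these markers, while its Akt2 lay within the KO range. Skeletal muscle markers ran the other way from Akt2 between the groups, with sums of 2320 to 18700 CPM in KO and 6.72 to 27.2 CPM in KO+NM1. The part of either cell type in the Akt2 difference was not tested. In the sequences of GENCODE M21, 9.76% of the runs of 50 bases in Akt2 transcripts also occur in Akt2-ps, a pseudogene counted at 2 to 74 reads, so shared reads can be a small part of the 4266 to 11591 reads of Akt2.

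Per length, the ratio of Akt1 to Akt2 was 3.03, 2.06 and 2.28 in KO and 2.01, 0.843, 0.594 and 1.00 in KO+NM1. The groups did not overlap, though KO+NM1 piece 01 came close to KO piece 02. The mean log2 difference was 1.27 (exact permutation test, p = 0.0571, adjusted p = 0.114).

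Mtor (ENSMUSG00000028991, chr4:148448611-148557683, plus strand), the kinase shared by mTORC1 and mTORC2, did not differ between the groups beyond their spread. It was 83.0, 62.1 and 67.7 CPM in KO and 46.5, 57.4, 97.8 and 54.9 CPM in KO+NM1. KO+NM1 piece 03 was the highest of all 7 libraries, and the KO pieces lay inside the KO+NM1 range. edgeR gave 0.15 on the log2 scale (standard error 0.27, adjusted p = 0.684), and 0.40 (adjusted p = 0.102) without KO+NM1 piece 03. It passed the threshold in 0 of 16 alternatives, and its sign turned with upper-quartile factors (-0.02), without KO piece 01 (-0.10) and without KO+NM1 piece 01 (-0.11). By log2 CPM over the 7 libraries the genes most like Mtor were Serhl, Pdp2 and Scd2, with r of 0.98, 0.977 and 0.972. They are the highest of 11890 genes compared over few libraries, where such values are easily reached, and they are a description. Scd2, a fatty acid desaturase, ran from 244 to 511 CPM, and Pdp2, a phosphatase that activates pyruvate dehydrogenase, from 5.43 to 14.9 CPM.

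Rptor (ENSMUSG00000025583, chr11:119602905-119899576, plus strand) encodes Raptor, the subunit that binds substrates and defines mTORC1, and it was the steadiest of the calls. It was 128, 100 and 98.3 CPM in KO and 56.6, 48.8, 67.6 and 55.7 CPM in KO+NM1. All KO pieces were above all KO+NM1 pieces, and piece 01 lay among the other KO+NM1 pieces. On the log2 scale the difference, KO minus KO+NM1, was 0.93 (standard error 0.16, adjusted p = 0.00355 with edgeR), just short of 2-fold. It passed in 16 of 16 alternatives, with a log2 fold change of 0.68 to 1.12 and an adjusted p of at most 0.0354. The antisense transcript Rptoros covers 84 bases of its exons and was counted at 2 to 23 reads, against at least 1199 for Rptor. Skeletal muscle markers were also high in KO, with all 8 called higher. They summed to 2320, 18700 and 15100 CPM in KO pieces 01, 02 and 03 and to 6.72 to 27.2 CPM in KO+NM1. Within KO, Rptor was highest in piece 01, where this sum was lowest. The part of muscle in the Rptor difference was not tested.

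Mtor and Rptor thus kept different ratios. Per length, the ratio of Mtor to Rptor was 0.864, 0.828 and 0.917 in KO and 1.09, 1.57, 1.93 and 1.31 in KO+NM1, without overlap, a mean log2 difference of -0.73 (exact permutation test, p = 0.0571, adjusted p = 0.114). Rictor, whose product defines mTORC2 as Raptor defines mTORC1, was 72.5, 47.3 and 52.4 CPM in KO and 39.3, 23.6, 24.6 and 26.6 CPM in KO+NM1. Its log2 fold change was 1.01 (standard error 0.24, adjusted p = 0.0116 with edgeR), and 0.69 (adjusted p = 0.0727 with edgeR) without KO piece 01. The ratio of Rptor to Rictor was 2.22 to 2.66 in KO and 1.81 to 3.46 in KO+NM1, with a mean log2 difference of -0.09 (exact permutation test, p = 0.686, adjusted p = 0.686).

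**Figure D4:**
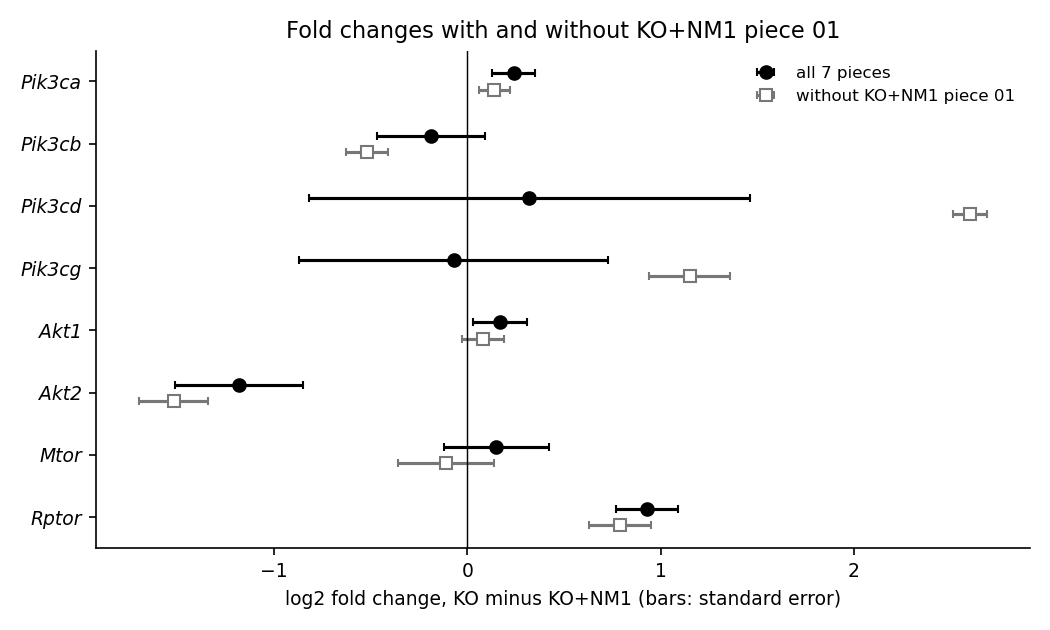
Log2 fold change, KO minus KO+NM1, of the 8 core genes with its standard error, fitted on all 7 pieces (filled circles) and without KO+NM1 piece 01 (open squares). Rptor is at 0.93 and 0.79 and Akt2 at -1.18 and -1.52, whereas Pik3cd moves from 0.32 to 2.60.

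In KO, mean levels per length ran from Akt1 over Akt2 at 24.3 ± 4.07, Pik3cd at 17.0 ± 0.898, Pik3ca at 9.78 ± 0.261, Rptor at 8.08 ± 1.24, Pik3cb at 7.13 ± 0.743 and Mtor at 7.02 ± 1.07 to Pik3cg at 2.21 ± 0.237 CPM per kb (SD, n = 3 each). Rptor, Pik3cb and Mtor lay within 1 SD of each other. In KO+NM1 the first 2 places were held by Akt2 at 54.9 ± 20.1 and Akt1 at 52.0 ± 5.81 CPM per kb (SD, n = 4 each), which did not differ beyond their spread, and Rptor came after Mtor, at 4.24 ± 0.579 against 6.35 ± 2.27 CPM per kb.

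The other genes of the cascade were read from lists by role. Of 103 tested genes outside the 8, 27 were higher and 22 lower in KO, that is 47.6% called against 50.2% of all genes. With upper-quartile factors the split was 24 and 29, and without KO+NM1 piece 01 it was 39 and 40. Their median log2 fold change was 0.03 and its median size 0.70. Of the 38 called genes that the naming rule chose among them, 24 stayed past the threshold in every alternative run for them.

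Among the 6 genes listed as regulatory subunits or partners of class I PI3K, 1 was higher and 1 lower, and without KO+NM1 piece 01 it was 3 and 1. Pik3r1, which encodes p85α, was 40.1, 43.6 and 45.0 CPM in KO and 140, 291, 265 and 358 CPM in KO+NM1. Every KO+NM1 piece, piece 01 included, was above every KO piece, and the log2 fold change was -2.62 (standard error 0.30, adjusted p = 0.0011 with edgeR). Pik3r2, for p85β, had 0.72 (adjusted p = 0.00879 with edgeR), which was not called without KO piece 01 or 02 (adjusted p up to 0.0699). Pik3r5 and Pik3ap1, partners of the leukocyte-type subunits, followed piece 01 as Pik3cd did, with 25.1 to 39.1 and 45.0 to 61.7 CPM in KO and 6.47 to 49.6 and 2.40 to 76.8 CPM in KO+NM1, neither called (adjusted p = 0.388 and 0.408 with edgeR). Without piece 01 both were higher in KO, Pik3r5 by 1.87 (adjusted p = 0.000244) and Pik3ap1 by 3.64 (adjusted p = 4.26e-05) on the log2 scale with edgeR. Pik3r6, also on this list, did not follow piece 01 in this way. Its lowest KO+NM1 level was in piece 01, at 10.2 CPM against 11.8 to 18.1 CPM in pieces 02 to 04. Its log2 fold change was -0.18 (adjusted p = 0.562) over all pieces and -0.42 (adjusted p = 0.0895) without piece 01, both with edgeR. Of the 4 class II and III genes tested, Pik3c2b (-1.87, adjusted p = 0.0186) and Pik3c3 (-0.40, adjusted p = 0.0281), the kinase of autophagy and endosomes, were lower with edgeR. The former was lost without KO piece 01 or 03 and the latter without KO piece 02 or 03 or KO+NM1 piece 02, at adjusted p of at most 0.0614. Among receptors and adaptors upstream, 1 of 8 was higher and 1 lower, against 2 and 5 without piece 01 and 2 lower without piece 02. Igf1r, the IGF1 receptor, was 15.7 to 18.3 CPM in KO and 4.15 to 7.40 CPM in KO+NM1 (1.45, adjusted p = 0.00334 with edgeR), while its ligand Igf1 was 32.8 to 38.0 CPM in KO and 68.8, 235, 199 and 228 CPM in KO+NM1 (-2.37, adjusted p = 0.0039 with edgeR). Irs3, an adaptor known from rodent adipose tissue, was at most 0.396 CPM in KO and 9.23 to 71.8 CPM in KO+NM1 (-7.27, adjusted p = 0.00104 with edgeR), and its lowest KO+NM1 value was in piece 01. Insr, the insulin receptor, had -0.48 (adjusted p = 0.179 with edgeR) over all pieces and -0.80 (adjusted p = 0.000422) without piece 01.

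The list of AKT activation had 3 of 4 tested genes higher and 0 lower. Over all genes 25.7% were higher, and in 57.0% the groups did not overlap. Hsp90aa1 and Hsp90ab1, the chaperones that keep AKT stable, had 1.48 (adjusted p = 0.000448) and 1.09 (adjusted p = 0.0042), and Pdpk1, which encodes PDK1, had 0.54 (adjusted p = 0.0111), each with edgeR and without overlap between the groups. The call of Pdpk1 was lost when any KO piece was left out (adjusted p up to 0.111 with edgeR). With the piece number as a replicate block 1 gene of this list was called, and Hsp90ab1 was not (adjusted p = 0.0538 with edgeR). Of 11 brakes on PI3K and AKT, 2 were higher and 2 lower, and 4 and 5 without KO+NM1 piece 01. Phlpp2, which removes an activating phosphate from AKT, had 1.27 (adjusted p = 0.00132) and the lipid phosphatase gene Inpp4a 1.13 (adjusted p = 0.0019), whereas Inpp5k had -0.92 (adjusted p = 0.00294), all with edgeR. Ppp2r5a, a subunit that directs the phosphatase PP2A, was 75.0 to 85.0 CPM in KO and 283 to 1050 CPM in KO+NM1 (-3.11, adjusted p = 0.00181 with edgeR). Inpp5d, the SHIP1 gene of blood cells, was 78.2 to 91.4 CPM in KO and 14.6 to 228 CPM in KO+NM1, with the order of pieces seen for Pik3cd. It was not called over all pieces (0.26, adjusted p = 0.851) and was higher in KO without piece 01 (2.16, adjusted p = 2.64e-05), both with edgeR.

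**Figure D5:**
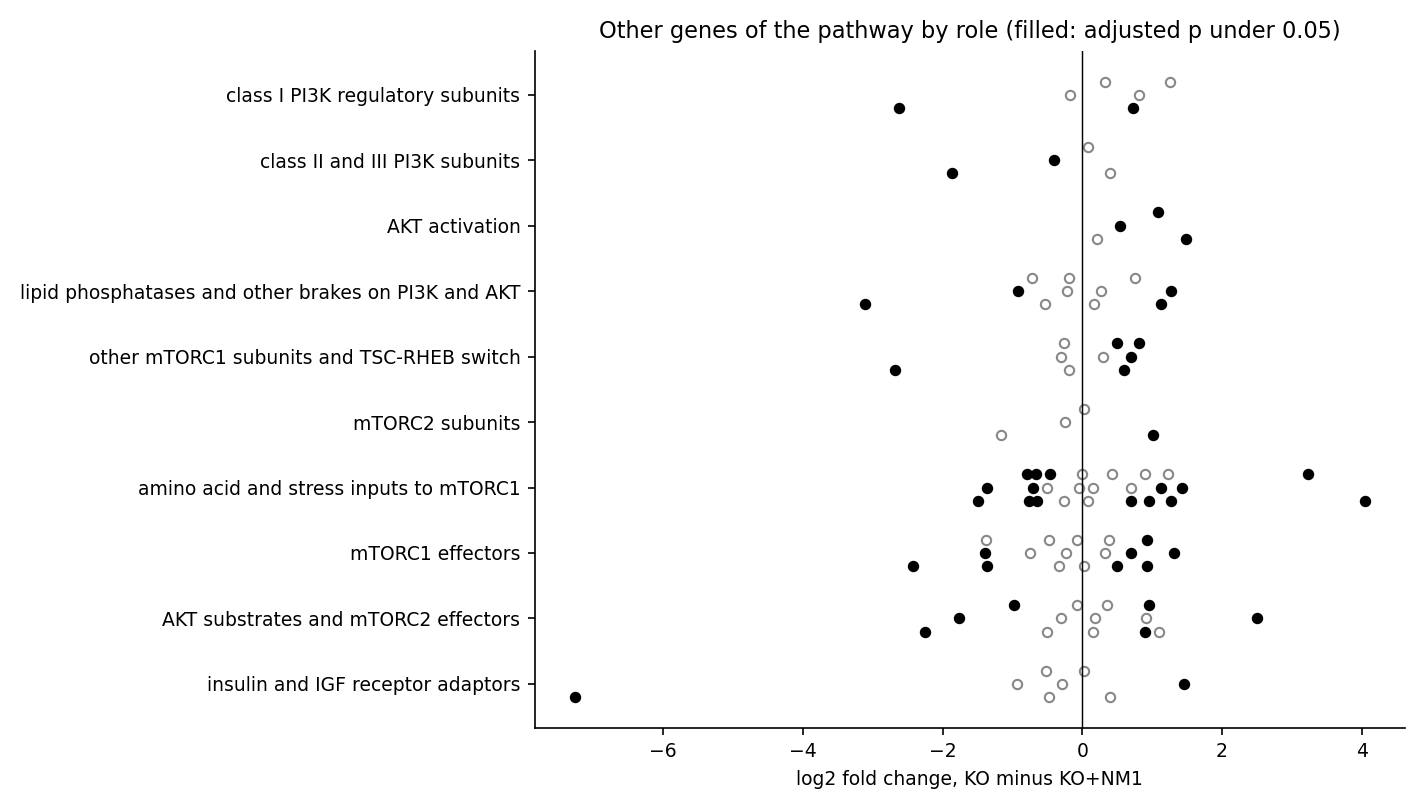
Log2 fold change, KO minus KO+NM1, of each tested gene outside the 8 in 10 lists by role, with filled points for an adjusted p under 0.05 from edgeR over all genes. Points lie on both sides of 0 in each list except that of AKT activation, where all 4 are above 0, and Irs3 is farthest out at -7.27.

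Of 9 further mTORC1 subunits and genes of the TSC-RHEB switch, 4 were higher and 1 lower. Without KO+NM1 piece 01 it was 4 and 4, and without any other library 1 was higher. The lower gene was Deptor, an inhibitor that binds mTOR, at 15.3, 23.7 and 19.7 CPM in KO and 46.0, 129, 217 and 109 CPM in KO+NM1 (-2.68, adjusted p = 0.00496 with edgeR). Tsc1, part of the brake on RHEB, had 0.81 (adjusted p = 0.00241), and its partner Tsc2 had 0.29 (adjusted p = 0.258), both with edgeR. Telo2 and Tti1, which help mTOR to fold and assemble, had 0.69 (adjusted p = 0.0322) and 0.59 (adjusted p = 0.0315), and Mlst8, a subunit of both mTOR complexes, had 0.49 (adjusted p = 0.0313), with edgeR. All 3 were lost when any library but KO+NM1 piece 01 was left out (adjusted p up to 0.149, 0.17 and 0.201 with edgeR). Of the 4 mTORC2 genes, Rictor was called higher and 0 lower, and 1 was lower without KO+NM1 piece 01 or 03.

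Amino acid and stress inputs to mTORC1 split evenly, with 7 of 25 tested genes higher and 8 lower. Rragd, a Rag GTPase, was 8.37 to 42.4 CPM in KO and 0.61 to 4.45 CPM in KO+NM1 (4.05, adjusted p = 0.00756), and Ddit4l, a stress-induced inhibitor of mTORC1 also found in muscle, was 6.03 to 20.7 and 1.14 to 1.91 CPM (3.23, adjusted p = 0.00157), both with edgeR. Its relative Ddit4 moved the other way, from 52.9 to 70.4 CPM in KO+NM1 to 17.5 to 24.6 CPM in KO (-1.49, adjusted p = 0.000945 with edgeR). Fnip2, a partner of folliculin, rose by 1.42 (adjusted p = 0.000698), while Castor1, an arginine sensor gene, fell by 1.37 (adjusted p = 0.00137) and Lamtor4, of the lysosomal anchor for the Rag GTPases, fell by 0.79 (adjusted p = 0.00523), on the log2 scale with edgeR. Relatives differed in direction. Castor2 was higher in KO (1.27, adjusted p = 0.00305), and the Rag GTPase genes Rragc (-0.76, adjusted p = 0.0259) and Rraga (-0.67, adjusted p = 0.0128) were lower, with edgeR. Rragb was not called (0.43, adjusted p = 0.656) and was higher in KO without KO+NM1 piece 01 (1.43, adjusted p = 0.00487), both with edgeR.

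Of 17 effectors of mTORC1, 5 were higher and 3 lower. Without KO+NM1 piece 01 it was 7 and 6, and without KO piece 01 3 were higher. Over all pieces, those higher bear on translation, in either direction, apart from Tfe3, a transcription factor of lysosomal genes. Other listed genes that bear on translation, Rps6, Rps6kb2, Eef2k, Eif4ebp1, Eif4ebp2 and Eif4ebp3, were not called over all pieces. Larp1, which binds mRNAs of the translation machinery, had 1.31 (adjusted p = 0.000701), the cap-binding factor Eif4e 0.93 (adjusted p = 0.00135) and Eif4b 0.92 (adjusted p = 0.00829), all with edgeR. Rps6kb1, which encodes S6 kinase, was 90.1, 78.7 and 80.2 CPM in KO and 54.7, 61.6, 63.1 and 56.0 CPM in KO+NM1 (0.50, adjusted p = 0.0123 with edgeR). It was not called when any KO piece was left out (adjusted p up to 0.131), nor was Eif4b without KO piece 01 (0.0577). The lower genes were the lipid genes Lpin1 (-2.43, adjusted p = 0.0154) and Srebf1 (-1.39, adjusted p = 0.0112) and the receptor adaptor Grb10 (-1.36, adjusted p = 0.0325), with edgeR. Grb10 was not called without 5 of the 7 libraries, KO pieces 01 and 02 and KO+NM1 pieces 02, 03 and 04, each left out alone (adjusted p up to 0.0909).

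Substrates of AKT and effectors of mTORC2 had 3 of 14 genes higher and 3 lower, and 5 and 5 without KO+NM1 piece 01. Prkca, a protein kinase C that mTORC2 stabilizes, was 57.0 to 77.4 CPM in KO and 9.34 to 16.2 CPM in KO+NM1 (2.50, adjusted p = 0.000516 with edgeR). The FOXO transcription factors, which AKT keeps out of the nucleus, were split between Foxo3 at 0.96 (adjusted p = 0.00249) and Foxo1 at -2.26 (adjusted p = 0.000836), with edgeR. Tbc1d4, the AKT substrate of glucose transporter traffic, had -1.76 (adjusted p = 0.00489) and the cell cycle inhibitor Cdkn1b -0.98 (adjusted p = 0.00412). Mdm2, which AKT directs against p53, had 0.90 (adjusted p = 0.012), not called without KO piece 01 or 03 (adjusted p up to 0.0715), all with edgeR.

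The lists held 9 genes of the RT-qPCR panel the study used for this cascade, Igf1, Igf1r, Insr, Pik3c2a, Pik3r1, Akt1, Tsc2, Mtor and Rps6kb1. In the tumor libraries 50.2% of all genes were called in either direction. Of the panel, Igf1r and Rps6kb1 were higher, Igf1 and Pik3r1 were lower, and the other 5 were not called. The last of these not yet given, Pik3c2a, had 0.40 (adjusted p = 0.0545 with edgeR).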

How the data were processed

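RNA-seq reads of 7 tumor pieces, 3 KO and 4 KO+NM1, were trimmed with Trimmomatic 0.36, checked with FastQC, aligned to GRCm38 with HISAT2 2.0.4, sorted with SAMtools 0.1.19 and counted per gene with HTSeq by the authors, who deposited raw read counts without normalization. The annotation release and strand option of the counting are not given in the sources used here, and without a strand option antisense reads cannot be told apart. Symbols came from GENCODE M21, which matched 46091 of 46603 genes, and the symbol Samtor was not matched. No row without a gene was present.

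Counts were analysed in R 4.3.3 with edgeR 4.0.16. Genes were kept by filterByExpr (minimum count 10), scaled by TMM, and KO was set against KO+NM1 in quasi-likelihood F tests, whose p-values were adjusted by Benjamini-Hochberg over 16887 genes. A gene was called at an adjusted p under 0.05. The study's methods add a 2-fold change and do not name the test. CPM are TMM-scaled, and CPM per kb divides them by the exon length in GENCODE M21. Ratios within a library were compared by exact two-sided permutation tests. The alternatives used DESeq2 1.42.0, limma 3.58.1, other scalings and filters, a replicate block and each library left out. On simulated counts of 16558 genes the test called 9.302% of 2-fold, 50.909% of 4-fold and 0.0183% of unchanged genes. These shares hold for those counts only, and the share of such changes called in the tumor libraries was not tested. No pair of libraries agreed within counting noise.

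Named genes were the 8 core genes, Myo1c, Rictor, the study's RT-qPCR panel, and in each role list up to 3 of the largest rises and falls past the threshold with a mean of at least 1 CPM. Other genes in the text were chosen after their values were seen, to complete a list, to set relatives beside a named gene, or because they followed KO+NM1 piece 01. A few listed genes are not reported here and were left out of the lists and their counts. The genes, the lists and the marker genes were chosen with earlier results of these data known. Promoter windows are from RefSeq on GRCm38.p6 and covered all 8 genes. Depth was 24088309 to 28326568 counts per library, so that the limit of 3 counts for a gene at 0 lay at 0.1059 to 0.1245 CPM of the unscaled library size, for counting error only.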

Additional observations from a re-analysis of the deposited data

Results flagged for a closer look

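In the 4 KO+NM1 pieces the distance from the most extreme piece to the nearest other one was divided by the range of all 4. This ratio of Dixon was taken for 56 values, of which 7 went past the critical value at the 95% level. By chance about 1 in 20 such groups passes, and the values are not independent. All 7 had KO+NM1 piece 01 as the outermost piece. The ratio was 0.958 for log2 CPM of Pik3cd, which was 292 CPM in piece 01, and 0.924 for the log2 ratio of Pik3cd and Pik3cg to Pik3ca and Pik3cb, which was 2.02 there and -2.51 to -2.17 in the others. It was 0.837 for the log2 ratio of Pik3ca to Pik3cb, at 1.00 in piece 01 and -0.27 to -0.06 in the others. Among the other genes of the cascade, it was 0.865 for Igf1, 0.837 for Phlpp2, 0.836 for Mdm2 and 0.831 for Srebf1, each in log2 CPM. The 3 KO pieces are too few for this ratio.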

How the results depend on the processing

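Under 16 alternative settings Rptor kept its call in 16, Akt2 in 11, and Mtor and Akt1 passed in 0. With limma's voom and sample quality weights 4 core genes were higher and 2 lower, and with a 2-fold change added 0 were higher. With the piece number as a replicate block 1 core gene was higher and 0 were lower, Akt2 having an adjusted p of 0.0518 from edgeR, and 21 other pathway genes were higher and 15 lower. The deviations of same-numbered pieces correlated at 0.08, 0.102 and -0.017, and those of differently numbered pieces at -0.12 to 0.109. With so few pieces these values cannot show whether same-numbered pieces share more than a number. Leaving out a piece gave 1 to 3 core genes higher and 0 to 2 lower, and 17 to 39 other pathway genes higher and 18 to 40 lower, with 17 higher without KO piece 01, and 39 higher and 40 lower without KO+NM1 piece 01. With voom those pathway counts were 43 and 39. Myo1c was not called with library size alone (log2 fold change -0.25, adjusted p = 0.297) or with the replicate block (-0.46, adjusted p = 0.126), both from edgeR, and ranged from -0.57 to -0.45 with a piece left out. Signs turned for Pik3cb with library size alone (0.03), for Pik3cd without KO+NM1 piece 02, 03 or 04 (-0.03 each), for Pik3cg with voom (1.36), with the replicate block (0.55) and without KO+NM1 piece 01 (1.15), for Mtor with upper-quartile factors (-0.02), without KO piece 01 (-0.10) and without KO+NM1 piece 01 (-0.11), for Inpp5d without KO+NM1 piece 02 (-0.09), 03 (-0.08) or 04 (-0.05), and for the ratio of Rptor to Rictor without KO+NM1 piece 03 (0.06). With a piece left out, Pik3cd ranged from -0.03 to 2.60, Pik3cg from -0.38 to 1.15, Inpp5d from -0.09 to 2.16 and Mtor from -0.11 to 0.40. The cause was not tested. Upper-quartile factors shifted the median of all genes by -0.16 and library size alone by 0.18. Of 1183 further values of single genes and lists, 1034 held, 66 lost and 16 gained the call, 13 turned sign as given above and 54 moved otherwise.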

Other observations

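Piece 01 also stood between the groups for several genes of the cascade that were called. Rictor, at 39.3 CPM there, lay nearer the lowest KO piece (47.3 CPM) than the highest of the other KO+NM1 pieces (26.6 CPM). Deptor, at 46.0 CPM, lay nearer the highest KO piece (23.7 CPM) than the lowest of the others (109 CPM). Rptor, at 56.6 CPM in piece 01, and Igf1r, at 7.37 CPM, lay within the range of the other KO+NM1 pieces.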
